A study of Mus musculus with 10 samples.

Results

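The 10 Krüppel-like factor genes Klf2, Klf4, Klf5, Klf6, Klf7, Klf9, Klf10, Klf11, Klf13 and Klf15 were followed in heart muscle cells sorted from infarcted mouse hearts. They are listed by gene name, and all 10 were found among the 56832 genes of the deposited count table, which holds 17 Klf genes in all. The cells came from Sprr1a-GFP mice, whose library titles all carry the tag Hetz. These reporter mice are named for Sprr1a, a small proline-rich protein of stressed epithelia and injured muscle. Myocardial infarction was made at 12 weeks of age, and cardiomyocytes were freed by Langendorff digestion, a perfusion of the heart with enzyme, 5 days later. Flow cytometry then divided them into GFP+ cells, labelled as border zone, and GFP- cells, labelled as remote zone. Each of 5 mice (17C1, 17C2, 21A4, 21A5 and 21A7) gave 1 GFP+ and 1 GFP- library, so every comparison is between cells of the same infarcted, reporter-carrying hearts, and no uninjured heart is among the libraries used here. The titles of the GFP+ libraries name both a DAPI-negative and a DAPI-positive fraction, whereas those of the GFP- libraries name a DAPI-negative fraction alone, and this difference cannot be told apart from the gate. DAPI is a DNA dye that enters cells whose membrane has become leaky.

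Krüppel-like factors are transcription factors with zinc fingers at their carboxyl end that bind GC-rich and CACCC elements, where members activate or repress according to the cofactors they recruit. In the heart, Klf15 is known as a glucocorticoid- and clock-linked regulator of lipid, glucose and branched-chain amino acid use and as a brake on hypertrophic transcription. Klf5 and Klf6 are known from injury and remodelling, and Klf2 and Klf4 from the response of endothelium to flow and from macrophages. Klf5 also acts in cardiomyocyte lipid metabolism and Klf6 is induced early after tissue injury.

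Sprr1a, the gene the reporter is named for, checked the sort. It had 158, 282, 250.2, 317 and 166 CPM (read counts divided by a library size that was scaled by the TMM method) in the GFP+ libraries of 17C1, 17C2, 21A4, 21A5 and 21A7, against 1.38, 4.17, 0.191, 8.98 and 2.48 CPM in the GFP- libraries of the same mice. The 2 groups did not overlap, and Sprr1a rose in GFP+ cells by 6.09 ± 0.86 on the log2 scale (SE, adjusted p = 0.0283, edgeR quasi-likelihood test, Benjamini-Hochberg over 12115 tested genes). Libraries held 12244373 to 38879965 counts, of which 9.20% to 91.2% fell on mitochondrial genes, leaving 3417972 to 16918067 counts for all others. All 10 cardiomyocyte markers were detected in every library, and their summed level was 10797 to 41824 CPM in GFP+ libraries, against 4058 to 51293 CPM in GFP- libraries. Both libraries of 21A7 stood apart. The GFP- one had the lowest cardiomyocyte sum and the highest fibroblast sum, 12129 CPM, of all libraries, and the lowest mitochondrial share, 9.20%. The GFP+ one had the highest mitochondrial share, 91.2%, the fewest other counts and the lowest cardiomyocyte sum in CPM of the GFP+ libraries. The TMM factors that scaled library size were 0.241 in its GFP+ and 3.31 in its GFP- library, the lowest and highest of all. By the start of their identifiers, 2 mice belong to a 17C series and 3 to a 21A series, and the titles of the series are worded differently. What the series marks is not given in the sources used here, so results within each series stand beside the pooled ones. Libraries of the same mouse were also compared as pairs, in a fit with the mouse as a block.

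Over the 5 mice, none of the 10 factors passed an adjusted p of 0.05 with TMM scaling. The count was 0 of 10 in the unpaired edgeR fit, where 0.0825% of all tested genes passed, and 0 of 10 with the mouse as a block, where 0.858% passed. At an unadjusted p under 0.05 the unpaired fit held 1 of the 10 factors, Klf9, beside 8.18% of all genes, and the blocked fit held 2, Klf7 and Klf9, beside 15.3%. DESeq2 and limma voom, run as alternatives, also passed 0 of the 10, beside 1.57% and 2.77% of genes. With counts scaled to library size alone, which moved the median of all genes to -1.24, 1 factor passed in the unpaired fit, Klf4 (-3.58, adjusted p = 0.0463, edgeR), beside 4.41% of genes that passed as lower. The estimates were below 0 for 7 factors and above 0 for 3, with a median log2 fold change of -0.59 beside -0.07 for all tested genes. Klf7, Klf9 and Klf13 were lower in GFP+ cells than in GFP- cells within 5 of 5 mice, which is 3 of 10 factors beside 8.02% of all tested genes. Without 21A7 there were 4 such factors in 4 mice, Klf15 being added, beside 11.9%. No factor was higher in all 5 mice, as 9.14% of tested genes were, and 0 factors had groups that did not overlap, against 0.916% of genes that were separate and lower and 1.54% that were separate and higher in GFP+ cells. In bulk samples such as these, fewer cells of a type and less RNA per cell cannot be told apart.

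**Figure D1:**
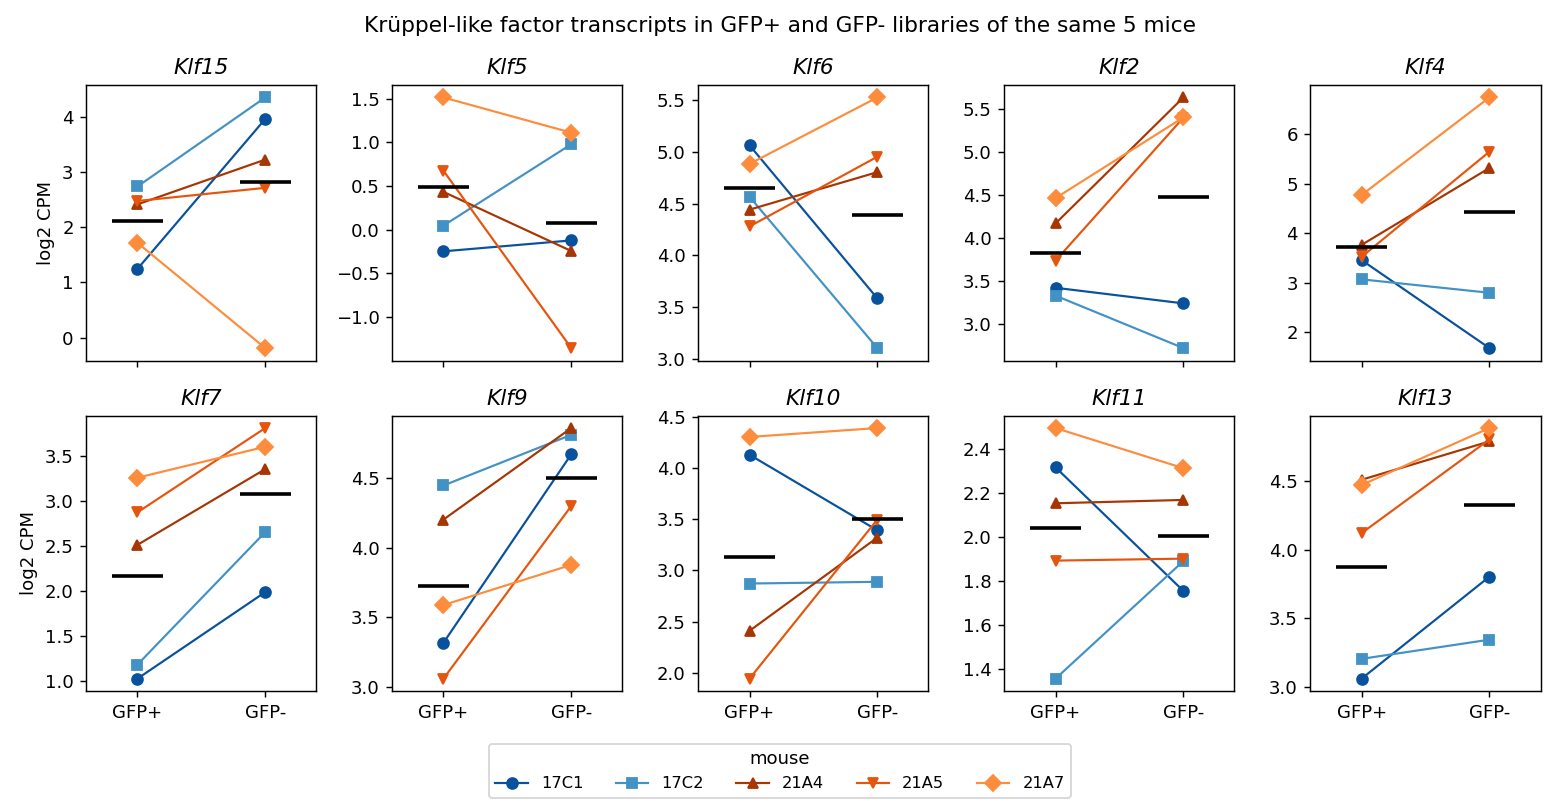
Level of each factor (log2 CPM, vertical axis) in the GFP+ and GFP- library of each mouse, joined by a line, with 17C mice in blue and 21A mice in orange; black bars are group means over 5 libraries. The groups overlap for all 10 factors, and the lines of Klf7, Klf9 and Klf13 run the same way in all 5 mice.

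Klf15, the metabolic member of the family, had 2.28, 6.57, 5.23, 5.46 and 3.20 CPM in the GFP+ libraries of 17C1, 17C2, 21A4, 21A5 and 21A7, against 15.4, 20.2, 9.24, 6.46 and 0.795 CPM in their GFP- libraries. These levels rest on between 21 and 119 Klf15 counts per GFP+ library and between 44 and 484 per GFP- library. The GFP- libraries of the 17C mice were the highest of all and that of 21A7 the lowest, so the groups overlapped. The mean was 4.55 ± 1.76 CPM in GFP+ cells and 10.4 ± 7.60 CPM in GFP- cells (SD, n = 5 each), and the unpaired log2 fold change was -1.19 ± 0.64 (SE, adjusted p = 0.665, edgeR). Within mice the log2 difference was -2.71, -1.61, -0.81 and -0.24 in 17C1, 17C2, 21A4 and 21A5, and 1.90 in 21A7. The difference thus went the other way in 1 mouse, whose GFP- library had the lowest summed cardiomyocyte markers in CPM. The GFP+ library of this mouse had the highest mitochondrial share, 91.2%. Without the GFP- library of 21A7 the unpaired value was -1.49 (adjusted p = 0.21, edgeR), and without the GFP- library of 17C2 it was -0.80 (adjusted p = 0.733). With the mouse block it was -0.75 over 5 mice, -1.32 without 21A7 (adjusted p = 0.232), -0.47 without 17C2 (adjusted p = 0.846) and -0.26 without 17C1 (adjusted p = 0.864).

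Set against the cells' own cardiomyocyte transcripts, Klf15 gave 11.2, 24.9, 12.5, 13.9 and 29.7 counts per 100000 counts of the 10 cardiomyocyte markers in GFP+ libraries, in the same order of mice. The GFP- libraries gave 35.5, 39.4, 28.2, 32.5 and 19.6. On this scale 17C1, 17C2, 21A4 and 21A5 again had the lower value in GFP+ cells and 21A7 the higher one. Scaling the whole fit to the marker genes gave a log2 fold change of -0.76 for Klf15 (adjusted p = 0.816, edgeR), where the median of all genes was -0.69. In both 17C mice, taken alone without a block, Klf15 fell in GFP+ cells by 1.98 ± 0.51 on the log2 scale (adjusted p = 0.0433, edgeR, 2 against 2 libraries), where 4.92% of tested genes passed as lower. The paired value there was -2.14 (adjusted p = 0.00345, edgeR, 2 pairs), with 7.52% of genes passing as lower. For the 21A mice it was -0.22 ± 0.77 unpaired (adjusted p = 0.928) and 0.24 ± 0.55 paired (adjusted p = 0.842). The difference between the series did not pass (2.36 ± 0.83 for 21A minus 17C with the mouse block, adjusted p = 0.111, edgeR).

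The promoter that RefSeq lists for Klf15 is shown because E-boxes of the form CACGTG are the elements through which clock factors act. It covers 250 bases before to 50 bases after the start, at chr6:90462326-90462625 on the plus strand of GRCm38.p6, an earlier build than the one behind the counts. Capitals mark CACGTG, a palindrome that reads the same on both strands.
Klf15: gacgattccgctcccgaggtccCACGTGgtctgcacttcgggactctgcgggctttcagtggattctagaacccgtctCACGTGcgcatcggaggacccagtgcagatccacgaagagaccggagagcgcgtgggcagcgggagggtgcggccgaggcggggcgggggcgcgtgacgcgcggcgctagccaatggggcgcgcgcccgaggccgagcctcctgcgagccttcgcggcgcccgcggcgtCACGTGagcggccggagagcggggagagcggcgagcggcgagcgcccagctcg
It holds 3 such sites, the first bases of which lie 228, 172 and 3 bases before the start, and 29 of 32851 promoters of this length (0.0883%) hold as many. Promoters were in the table for 8 of the 10 factors (all but Klf5 and Klf10), and were also searched on both strands for CACCC and GGGCGG, letters bound by the family and by its Sp relatives. In the Klf15 promoter CACCC and GGGCGG occur once each, without overlap with a CACGTG site. At least 1 CACGTG occurs in 7.15% of all promoters, CACCC in 57.5% and GGGCGG in 35.7%. Such matches describe the sequence and are not binding sites.

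Klf5, the factor tied to cardiac lipid handling and to remodelling, was the least abundant of the 10. It had 7, 10, 16, 33 and 26 counts in the GFP+ libraries of 17C1, 17C2, 21A4, 21A5 and 21A7, against 14, 24, 40, 14 and 115 counts in the GFP- libraries, or 0.761, 0.952, 1.27, 1.52 and 2.77 CPM against 0.837, 1.89, 0.763, 0.310 and 2.08 CPM. Both libraries of 21A7 were the highest of their group, and the groups overlapped throughout. The mean was 1.45 ± 0.793 CPM in GFP+ and 1.18 ± 0.768 CPM in GFP- cells (SD, n = 5 each), with a log2 fold change of 0.31 ± 0.64 (adjusted p = 0.914, edgeR). Klf5 was higher in GFP+ cells in the 3 mice of the 21A series and lower in the 2 mice of the 17C series.

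Klf6, an injury-induced member with many targets in matrix and growth control, had 33.4, 23.6, 21.6, 19.3 and 29.5 CPM in the GFP+ libraries of 17C1, 17C2, 21A4, 21A5 and 21A7, against 11.9, 8.50, 27.9, 30.9 and 46.0 CPM in the GFP- libraries. Among GFP- libraries the 2 of the 17C mice lay below all GFP+ libraries, while those of 21A4, 21A5 and 21A7 lay above the GFP+ library of their own mouse. The means were 25.5 ± 5.79 CPM in GFP+ and 25.0 ± 15.2 CPM in GFP- cells (SD, n = 5 each), so the pooled log2 fold change was 0.02 ± 0.42 (adjusted p = 0.989, edgeR). Within mice the log2 difference was 1.48 in 17C1 and 1.46 in 17C2, against -0.36, -0.67 and -0.64 in 21A4, 21A5 and 21A7. In the 17C mice Klf6 rose in GFP+ cells (1.48 ± 0.34, adjusted p = 0.0284, edgeR, 2 against 2 libraries), where 4.61% of genes passed as higher. The paired value was 1.49 (adjusted p = 0.00568, edgeR, 2 pairs), where 6.08% passed as higher. The paired value in the 21A mice was -0.54 ± 0.20 (adjusted p = 0.143). The difference between the series was -2.04 ± 0.32 for 21A minus 17C with the mouse block (adjusted p = 0.0207, edgeR), where 7.62% of genes passed. Without the block it was -2.05 ± 0.49 (adjusted p = 0.2), where 0% passed.

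The Klf6 promoter is shown beside that of Klf15 as the other side of the contrast. It lies at chr13:5861239-5861538, plus strand, GRCm38.p6 (RefSeq), with CACGTG in capitals.
Klf6: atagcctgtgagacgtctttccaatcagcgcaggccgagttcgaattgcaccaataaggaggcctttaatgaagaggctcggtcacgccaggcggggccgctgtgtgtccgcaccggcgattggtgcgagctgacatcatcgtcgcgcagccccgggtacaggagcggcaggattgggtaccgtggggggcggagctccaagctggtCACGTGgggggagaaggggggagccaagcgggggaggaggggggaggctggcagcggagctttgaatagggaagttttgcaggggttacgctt
It holds 1 CACGTG site, beginning 43 bases before the start, and no CACCC. GC made up 63.0% of its bases and 73.3% of those of Klf15, against a median of 52.7% over all promoters.

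The contrast between Klf15 and the injury-linked pair was read within each library, where the scaling between libraries cancels. The log2 ratio of Klf5 to Klf15 counts (with 0.5 added to each count) was -1.52, -2.73, -2.01, -1.83 and -0.20 in the GFP+ libraries of 17C1, 17C2, 21A4, 21A5 and 21A7, against -4.16, -3.39, -3.58, -4.33 and 1.38 in their GFP- libraries. It was higher in GFP+ cells in 4 of 5 mice, and the GFP- library of 21A7 was the only one above 0. The means were -1.66 ± 0.93 in GFP+ and -2.82 ± 2.38 in GFP- cells (SD, n = 5 each). Their difference of 1.16 gave p = 0.349 in a two-sided exact permutation test over all regroupings of the libraries (0.5 adjusted over the 2 ratios by Benjamini-Hochberg, smallest possible p 0.00794). Exact sign flips within mice gave p = 0.25 (adjusted 0.4375, smallest possible 0.0625). In the mice other than 21A7, which were set apart after the values were seen, the GFP+ ratios of -2.73 to -1.52 lay above the GFP- ratios of -4.33 to -3.39. The difference was then 1.84, with p = 0.0286 in the exact permutation test, the smallest possible with 4 against 4 libraries (adjusted 0.0571). As 21A7 was set apart after the values were seen, this p is given as a description only. Leaving out 1 of the other mice instead gave 0.79 to 1.28, with p of 0.429 to 0.629 in the exact permutation test.

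The log2 ratio of Klf6 to Klf15 counts was 3.84, 1.84, 2.04, 1.82 and 3.18 in the GFP+ libraries in the same order, against -0.37, -1.25, 1.59, 2.26 and 5.84 in the GFP- libraries. Klf15 outnumbered Klf6 in the GFP- libraries of both 17C mice alone, and the GFP- library of 21A7 had the highest ratio of all. The mean was 2.54 ± 0.92 in GFP+ and 1.61 ± 2.76 in GFP- cells (SD, n = 5 each), a difference of 0.93 with p = 0.5 in the exact permutation test (adjusted 0.5). Exact sign flips gave 0.4375. The ratio was higher in GFP+ cells in 3 of 5 mice, by a mean of 3.65 in the 17C mice. In the 21A mice the difference was 0.45 in 21A4, -0.44 in 21A5 and -2.66 in 21A7, with a mean of -0.88. The mean difference also moved with the mice included, being 0.11 without 17C1, 0.39 without 17C2 and 1.83 without 21A7 (exact permutation tests, adjusted p of 0.886, 0.829 and 0.143).

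**Figure D2:**
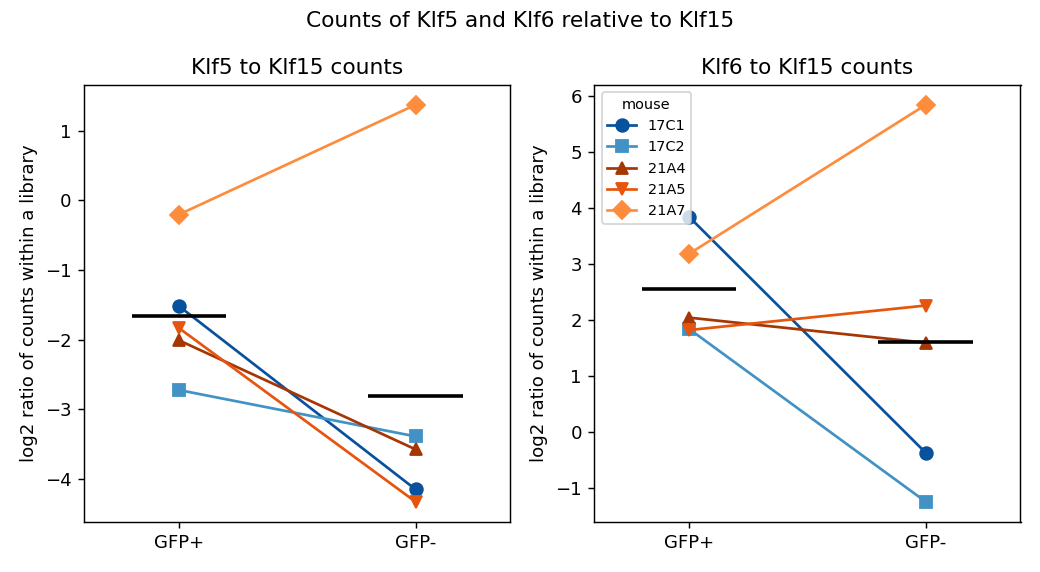
Log2 ratio of Klf5 to Klf15 counts (left) and of Klf6 to Klf15 counts (right) within each GFP+ and GFP- library, joined by mouse; black bars are means over 5 libraries. Except in 21A7, whose GFP- value is 1.38, the Klf5 to Klf15 ratio is higher in GFP+ cells. The Klf6 to Klf15 ratio is higher in GFP+ cells in 17C1, 17C2 and 21A4, and lower in 21A5 and 21A7.

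Klf2 and Klf4, the flow-responsive factors of endothelium that also act in macrophages, shared the pattern of Klf6 across the series. Klf2 had 10.7, 9.998, 17.9, 13.3 and 22.0 CPM in the GFP+ libraries of 17C1, 17C2, 21A4, 21A5 and 21A7, against 9.39, 6.53, 49.4, 42.0 and 42.1 CPM in the GFP- libraries. Klf4 had 10.9, 8.28, 13.5, 11.4 and 27.2 CPM in the GFP+ libraries, against 3.11, 6.85, 39.8, 50.02 and 107 CPM in the GFP- libraries. For both genes the 3 GFP- libraries of the 21A mice were the highest of the 10 libraries and the 2 of the 17C mice the lowest, with all GFP+ libraries between them. The pooled log2 fold changes were -1.02 ± 0.53 for Klf2 (adjusted p = 0.652, edgeR) and -1.54 ± 0.77 for Klf4 (adjusted p = 0.631). With the mouse block they were -0.68 for Klf2 (adjusted p = 0.429) and -0.84 for Klf4 (adjusted p = 0.555), and without the GFP- library of 21A7 the unpaired Klf4 value was -0.85 (adjusted p = 0.76).

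In the 21A mice with the mouse block, Klf2 fell in GFP+ cells by 1.34 ± 0.23 (adjusted p = 0.0125, edgeR) and Klf4 by 1.87 ± 0.22 (adjusted p = 0.00448), where 4.05% of genes passed as lower. Without the block neither passed in these mice (Klf2 -1.31, adjusted p = 0.206, and Klf4 -1.90, adjusted p = 0.241), nor did any of the 13221 genes tested there (1621 had an unadjusted p under 0.05). For the 17C mice the paired values were 0.40 ± 0.46 and 1.04 ± 0.56, with adjusted p of 0.672 and 0.255. The difference between the series passed with the mouse block for Klf2 (-1.75 ± 0.37, adjusted p = 0.0311, edgeR) and for Klf4 (-2.92 ± 0.47, adjusted p = 0.0211). Without the block both had an adjusted p of 0.20. Of all tested genes 7.62% passed with the block and 0% without it.

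In the 21A mice, markers of endothelial cells, macrophages and fibroblasts were lower in GFP+ libraries together with Klf2 and Klf4, and in the 17C mice they did not all run with these factors. In the 21A mice the summed endothelial markers, all 10 detected in every library, were 165 to 394 CPM in GFP+ and 662 to 729 CPM in GFP- libraries, and in the 17C mice 55.4 to 105 CPM in GFP+ and 95.6 to 125 CPM in GFP- libraries. The 10 macrophage markers summed to 78.2 to 426 CPM in GFP+ and 347 to 818 CPM in GFP- libraries of the 21A mice, against 27.4 to 57.7 CPM in GFP+ and 34.0 to 38.4 CPM in GFP- libraries of the 17C mice. The 10 fibroblast markers summed to 1776 to 5155 CPM in GFP+ and 6574 to 12129 CPM in GFP- libraries of the 21A mice, and to 269 to 330 CPM in GFP+ and 158 to 313 CPM in GFP- libraries of the 17C mice. In 17C2, where Klf2 and Klf4 were higher in the GFP+ library, the endothelial sum was 55.4 CPM in GFP+ and 125 CPM in GFP- cells and the macrophage sum 27.4 CPM in GFP+ and 34.0 CPM in GFP- cells. In 17C1 both sums were higher in the GFP+ library. At most 1 macrophage and 1 fibroblast marker was at 0 in any library. With the mouse block over all 5 mice, Eng of the endothelial list fell by 1.57 ± 0.28 (adjusted p = 0.0452, edgeR) and Fbln1 of the fibroblast list by 1.41 ± 0.25 (adjusted p = 0.0484). No other gene of the cell type lists passed in that fit. With the block in the 21A mice, 9 of 10 macrophage, 8 of 10 fibroblast and 5 of 10 endothelial markers passed as lower. Of all tested genes 4.05% did so there. With the block in the 17C mice no macrophage or endothelial marker passed. Of 8 fibroblast markers tested there 3 rose and 1 fell, beside 6.08% and 7.52% of all tested genes. Mesothelial markers ran the other way, with 126 to 482 CPM in GFP+ and 30.6 to 208 CPM in GFP- libraries of the 21A mice, and 120 to 209 CPM in GFP+ against 0.718 to 16.8 CPM in GFP- libraries of the 17C mice, 1 of which had 6 of 8 markers at 0. With the block 7 of 8 passed as higher in the 21A mice, beside 353 of 13221 tested genes. In the 17C mice 8 of 8 did, beside 6.08%. The sum of the mural list, which holds the muscle gene Des, was 1909 to 9080 CPM in GFP+ and 456 to 1709 CPM in GFP- libraries. Of its 10 genes, however, 8 had estimates below 0 in the unpaired fit over 5 mice, with a median log2 fold change of -1.36. The 6 neutrophil markers summed to 12.2 CPM at most. The part of these cells in the values of Klf2, Klf4, Klf6 and Klf15 was not tested.

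**Figure D3:**
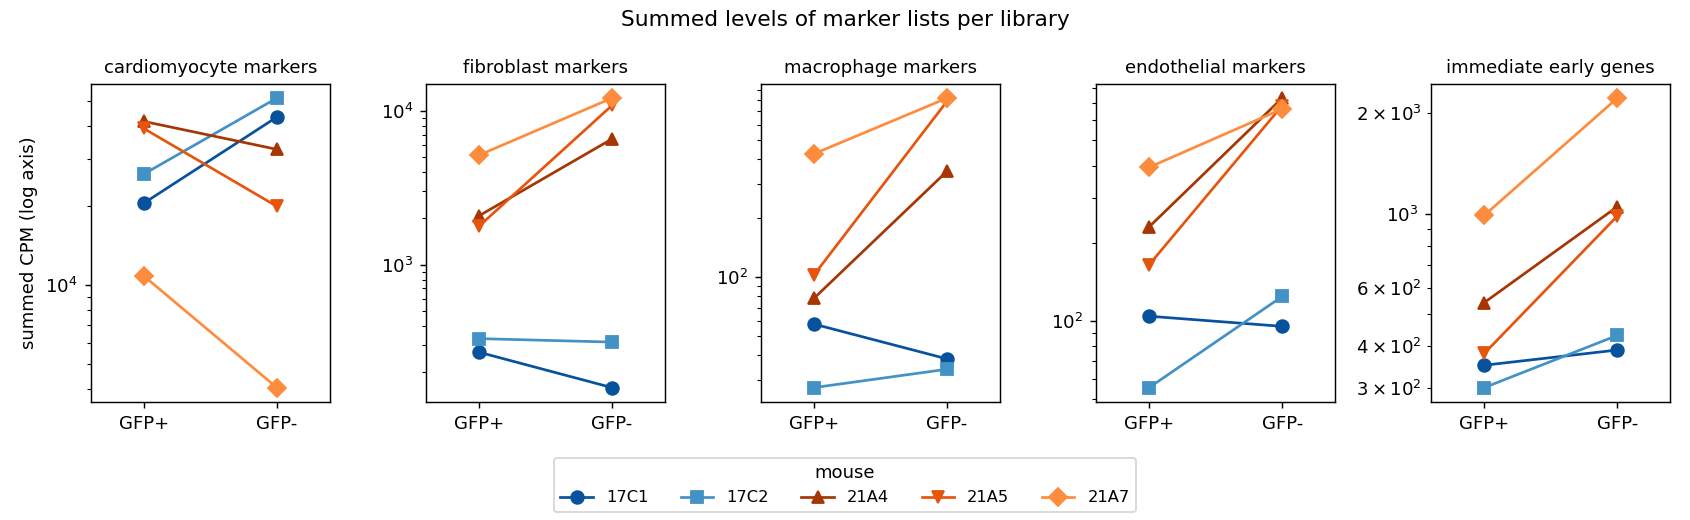
Summed CPM (log axes) of the cardiomyocyte, fibroblast, macrophage and endothelial marker lists and of the immediate early genes in the GFP+ and GFP- library of each mouse, joined by lines. In the 21A mice (orange) the cardiomyocyte sum in CPM is higher and the fibroblast, macrophage and endothelial sums are lower in the GFP+ library. In the 17C mice (blue) the cardiomyocyte sum is lower in the GFP+ library. As a share of counts outside mitochondrial genes, the cardiomyocyte sum of 21A4 was lower in GFP+ (9.68%) than in GFP- cells (10.1%). On that scale it stayed higher in GFP+ cells of 21A5 (8.62% against 6.07%) and 21A7 (2.96% against 1.47%).

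The promoters of Klf2 and Klf4 are printed as those of the pair that moved together. They lie at chr8:72318812-72319111, plus strand, and chr4:55532426-55532725, minus strand, both in GRCm38.p6 (RefSeq) and both written along the strand of the gene. Capitals mark GGGCGG on either strand, which reads CCGCCC on the opposite one.
Klf2: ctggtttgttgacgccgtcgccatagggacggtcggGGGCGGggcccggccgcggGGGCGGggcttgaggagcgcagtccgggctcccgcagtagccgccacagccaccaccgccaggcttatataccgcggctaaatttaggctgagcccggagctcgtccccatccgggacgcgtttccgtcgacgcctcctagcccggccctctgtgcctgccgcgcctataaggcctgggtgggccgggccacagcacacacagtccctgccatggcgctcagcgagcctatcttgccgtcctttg
Klf4: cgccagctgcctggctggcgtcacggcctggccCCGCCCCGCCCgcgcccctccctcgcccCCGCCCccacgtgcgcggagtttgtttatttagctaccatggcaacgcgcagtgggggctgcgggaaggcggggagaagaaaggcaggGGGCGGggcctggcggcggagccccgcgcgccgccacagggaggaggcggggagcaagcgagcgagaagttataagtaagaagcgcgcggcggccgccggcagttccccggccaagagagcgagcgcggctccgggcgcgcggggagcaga
Klf2 holds 2 such sites, as 19.5% of promoters do or exceed, and Klf4 holds 4, as 5.49% do or exceed, the first 2 of which share a base. Klf4 also holds 1 CACGTG and Klf2 holds none.

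**Figure D4:**
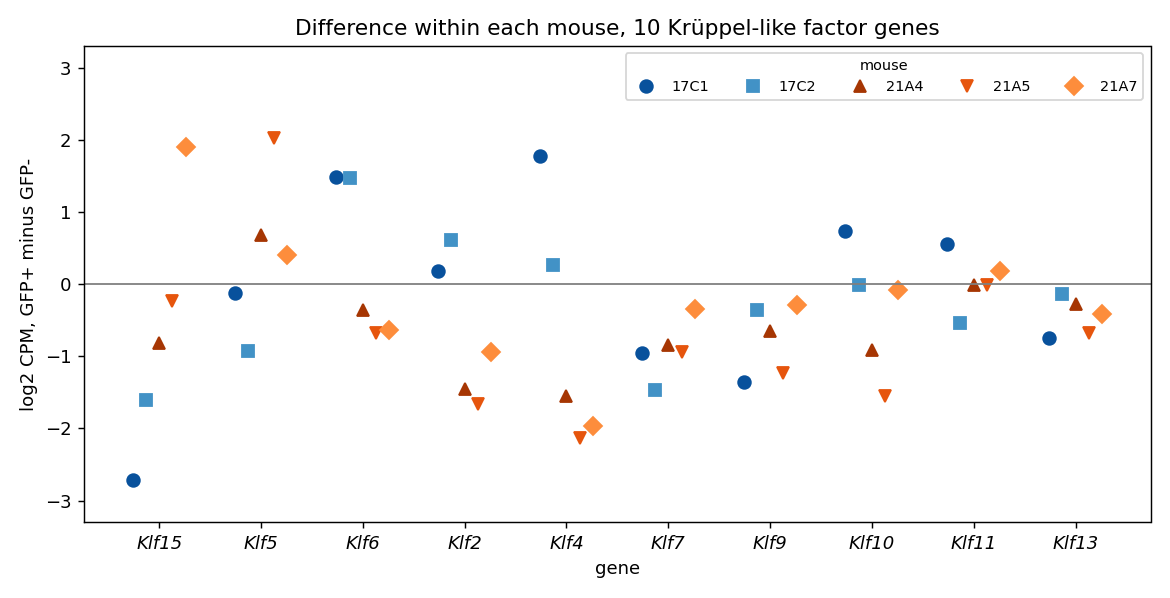
Log2 CPM of GFP+ cells minus that of GFP- cells within a mouse, for each of the 10 factors, with 1 point per mouse. Points of Klf7, Klf9 and Klf13 all lie below 0, and those of Klf6, Klf2 and Klf4 lie above 0 in both 17C mice (blue) and below 0 in the 3 21A mice (orange).

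Klf9, a glucocorticoid- and thyroid hormone-induced factor that opposes growth in several tissues, had 9.90, 21.7, 18.3, 8.26 and 12.0 CPM in the GFP+ libraries of 17C1, 17C2, 21A4, 21A5 and 21A7, against 25.4, 28.0, 28.9, 19.6 and 14.6 CPM in the GFP- libraries. Every GFP+ library lay below the GFP- library of its mouse, by 0.29 to 1.35 on the log2 scale, although the groups overlapped. The log2 fold change was -0.73 ± 0.33 unpaired (adjusted p = 0.597, edgeR) and -0.78 ± 0.24 with the mouse block (adjusted p = 0.186). It was alike in the 2 series, with -0.84 in the 17C mice and -0.71 in the 21A mice with the block, and their difference was 0.12 ± 0.44. Set against cardiomyocyte marker counts, Klf9 was lower in GFP+ cells in 4 of 5 mice.

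Klf7, a factor known from neurons and adipocytes, had 1.96, 2.19, 5.63, 7.25 and 9.50 CPM in the GFP+ libraries in that order, against 3.89, 6.22, 10.2, 14.0 and 12.1 CPM in the GFP- libraries. Its levels were lower in the 17C mice than in the 21A mice in both gates, and within each mouse lower in the GFP+ library. The log2 fold change was -0.80 ± 0.50 unpaired (adjusted p = 0.699, edgeR) and -0.91 ± 0.28 with the mouse block (adjusted p = 0.18). Against cardiomyocyte marker counts it was lower in GFP+ cells in 4 of 5 mice.

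Klf13, which is known to control the chemokine gene Rantes in T cells, had 8.26, 9.14, 22.7, 17.3 and 22.1 CPM in the GFP+ libraries, against 13.9, 10.1, 27.5, 27.8 and 29.5 CPM in the GFP- libraries. All 5 pairs differed in the same direction, by 0.14 to 0.74 on the log2 scale. The log2 fold change was -0.45 ± 0.40 unpaired (adjusted p = 0.789, edgeR) and -0.45 ± 0.20 with the mouse block (adjusted p = 0.331). Against cardiomyocyte marker counts it was lower in GFP+ cells in 3 of 5 mice.

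Klf10 and Klf11, the TGF-beta-inducible members that repress growth genes, showed no common direction. Klf10 lay between 3.77 and 19.6 CPM in GFP+ and between 7.32 and 20.9 CPM in GFP- libraries, with the GFP+ library lower in 4 of 5 mice and a log2 fold change of -0.17 ± 0.48 (adjusted p = 0.941, edgeR). Klf11 lay between 2.48 and 5.55 CPM in GFP+ and between 3.29 and 4.88 CPM in GFP- libraries. Its log2 fold change was 0.07 ± 0.33 (adjusted p = 0.965, edgeR), an interval of 1 SE that spans both directions. A p that misses the threshold does not show that these genes had the same level in both gates.

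Levels of different genes were compared per kilobase of exon, from exon lengths of an earlier annotation (GENCODE M21). In GFP+ cells the order was Klf2 (7.99 ± 2.76 CPM per kb, SD, n = 5), Klf6 (6.03 ± 1.37), Klf4 (4.70 ± 2.47), Klf9 (3.13), Klf10 (2.78), Klf13 (2.38), Klf15 (1.65), Klf11 (1.02), Klf7 (0.659) and Klf5 (0.280). No neighbours in this order differed by more than the larger of their SDs. In GFP- cells Klf2 (16.2 ± 11.0 CPM per kb) and Klf4 (13.7 ± 13.9) led, followed by Klf6 (5.93), Klf9 (5.19), Klf15 (3.79), Klf13 (3.26), Klf10 (3.12), Klf7 (1.15), Klf11 (0.972) and Klf5 (0.226). There Klf10 stood above Klf7 and Klf11 above Klf5 by more than the larger SD, and no other neighbours did. Klf15 held rank 7 in GFP+ and rank 5 in GFP- cells, while Klf6 held ranks 2 and 3 and Klf5 rank 10 in both. Small RNA genes and gene models of a RefSeq table of the earlier build overlap Klf7 (3), Klf9 (1), Klf10 (1) and Klf13 (2). Those with a row in the count table held 0 to 69 counts over all libraries, and without strand in the library kit reads of overlapping genes cannot be told apart.

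Of the 7 other Klf genes in the table, 3 had enough counts to test, and none passed in the fits over 5 mice or in either series. Klf3, a repressor that binds CACCC elements through its fingers and recruits Ctbp, had 12.5 ± 6.69 CPM in GFP+ and 16.3 ± 8.28 CPM in GFP- cells. Klf12, another Ctbp-binding repressor, had 2.86 ± 0.971 and 3.71 ± 1.75 CPM in GFP+ and GFP- cells, and Klf16 had 2.86 ± 1.83 and 2.36 ± 1.39 CPM (SD, n = 5 each). Klf1, Klf8, Klf14 and Klf17 had at most 16 counts in any library. Of the 9 Sp genes, the closest relatives of the family, Sp1, Sp2, Sp3 and Sp4 were tested and none passed. Sp5, Sp6 and Sp8 were at 0 in all libraries, and Sp7 and Sp9 had at most 2 counts in any.

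Genes through which Klf15 is known to act numbered 16, and all were tested. Apart from the channel gene Kcnip2, they serve branched-chain amino acid, fatty acid and glucose use. Over 5 mice none passed in the unpaired or the blocked fit, with 15 of 16 estimates below 0 unpaired and a median log2 fold change of -0.94 beside -0.07 for all genes. In the 17C mice with the mouse block 13 fell and 0 rose, with a median of -1.75, where 7.52% of genes passed as lower. Unpaired, 11 of them fell there, beside 4.92% of all genes. Among the 21A mice 0 passed with the block, where 6.72% of genes passed in either direction, and the median was 0.14. The 2 genes with the smallest unpaired p were Kcnip2 and Lpl. Kcnip2, the potassium channel subunit whose rhythm Klf15 drives, had 10.3 ± 3.93 CPM in GFP+ and 37.2 ± 34.4 CPM in GFP- cells (log2 fold change -1.84 ± 0.73, adjusted p = 0.549, edgeR). Lpl, the lipase that frees fatty acids from lipoproteins, had 296 ± 149 and 679 ± 329 CPM in GFP+ and GFP- cells (-1.20 ± 0.53, adjusted p = 0.595). The summed cardiomyocyte markers were 20418 to 26356 CPM in GFP+ and 43425 to 51293 CPM in GFP- libraries of the 17C mice. They were 10797 to 41824 CPM in GFP+ and 4058 to 32741 CPM in GFP- libraries of the 21A mice. As a share of counts outside mitochondrial genes, the GFP- sums did not separate the series. They were 7.83% and 8.94% in 17C1 and 17C2, against 10.1%, 6.07% and 1.47% in 21A4, 21A5 and 21A7. In the 17C mice 7 of the 10 cardiomyocyte markers themselves fell with the block, beside 7.52% of all tested genes, with a median of -1.49 beside -0.010 for all genes. Their part in the list of Klf15-linked genes was not tested.

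Glucocorticoid-induced and clock genes, the upstream setting of Klf15 and Klf9, numbered 17. None passed over 5 mice in either fit, 16 of 17 estimates were below 0 unpaired, and the median was -0.49. Fkbp5, Per3, Dbp, Nr1d2 and Arntl were lower in GFP+ cells in all 5 mice, which is 5 of 17 genes beside 8.02% of all tested genes. Per3, a period gene of the clock, had 0.810 ± 0.594 CPM in GFP+ and 2.44 ± 0.818 CPM in GFP- cells (log2 fold change -1.58 ± 0.62, adjusted p = 0.549, edgeR). Dbp, a clock output activator, had 1.72 ± 0.852 and 5.05 ± 3.85 CPM in GFP+ and GFP- cells (-1.55 ± 0.61, adjusted p = 0.549). With the block, in 17C mice, Nr1d1 and Nr1d2, the heme-binding repressors of the clock, fell (-2.33 and -1.08, adjusted p = 0.00053 and 0.0228, edgeR). These were 2 of the 16 genes of the list tested there, beside 7.52% of all genes that passed as lower. In the 21A mice with the block Sgk1, a glucocorticoid-induced kinase, fell (-1.40, adjusted p = 0.0377, edgeR). This was 1 of 17, beside 4.05% of all genes that passed as lower.

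**Figure D5:**
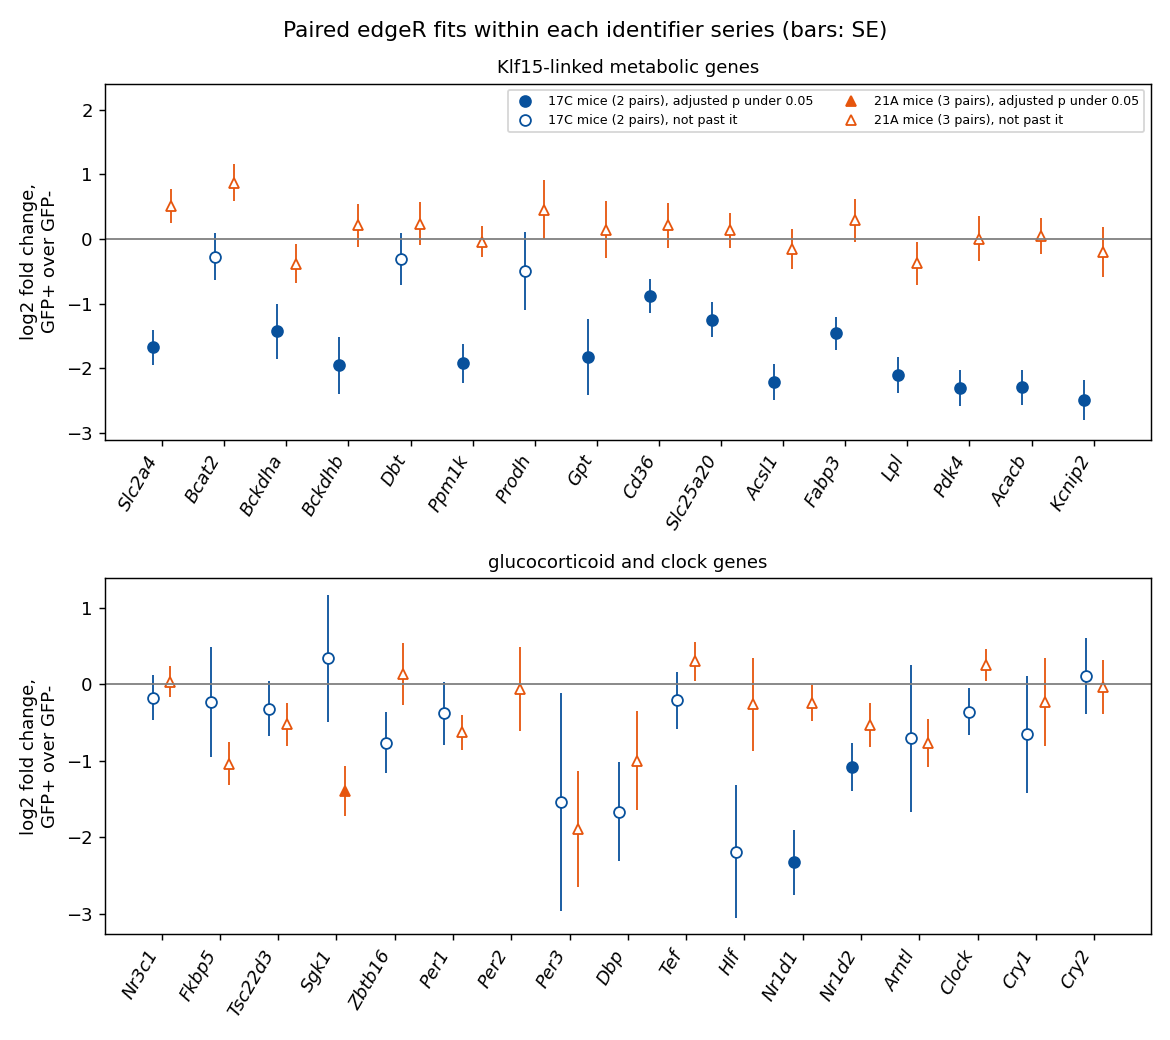
Log2 fold change, GFP+ over GFP-, of the Klf15-linked genes, metabolic but for Kcnip2 (top), and of the glucocorticoid and clock genes (bottom). Fits with the mouse block were made within the 17C mice (blue circles, 2 pairs) and the 21A mice (orange triangles, 3 pairs). Bars are SE and filled symbols have an adjusted p under 0.05. In the top panel 13 of 16 genes fell in the 17C mice and 0 passed in the 21A mice.

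Genes known to act with or under Klf5 numbered 8, of which 6 were tested over 5 mice and none passed. Ppara, the fatty acid-sensing receptor that Klf5 activates in mouse cardiomyocytes, had 4.26 ± 2.73 CPM in GFP+ and 11.0 ± 9.02 CPM in GFP- cells (log2 fold change -1.35 ± 0.75, adjusted p = 0.675, edgeR). Foxo1, a factor that controls Klf5 in the mouse heart, had 4.91 ± 3.29 and 8.83 ± 1.99 CPM in GFP+ and GFP- cells (-0.84 ± 0.51, adjusted p = 0.695). Both fell in the 17C mice with the block (-2.88 and -2.70, adjusted p = 0.000424 and 0.0112, edgeR), and Sptlc2, a subunit of the enzyme that starts sphingolipid synthesis, rose (1.74, adjusted p = 0.0112). These were 2 lower and 1 higher of the 6 genes tested there, beside 7.52% and 6.08% of all tested genes. None of the 8 genes tested in the 21A mice passed with the block, where 6.72% of all genes passed in either direction.

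Cofactors and regulators of the family numbered 13 and none passed over 5 mice. Sin3a, the corepressor that Klf9, Klf10, Klf11 and Klf13 bind, had 11.3 ± 2.20 CPM in GFP+ and 18.8 ± 4.57 CPM in GFP- cells and was lower in 5 of 5 mice (log2 fold change -0.73 ± 0.26, adjusted p = 0.487, edgeR). Mef2a, a muscle transcription factor, had 33.1 ± 4.86 and 55.1 ± 19.9 CPM in GFP+ and GFP- cells and was also lower in 5 of 5 mice (-0.74 ± 0.29, adjusted p = 0.55). Of the 13, 3 were lower in all 5 mice, beside 8.02% of all tested genes. In all 5 mice 1 was higher, Sin3b (unpaired log2 fold change 0.25), beside 9.14% of all tested genes. With the block Ep300, Fbxw7 and Mef2a fell in the 17C mice, 3 of 13 beside 7.52% of all genes, and in the 21A mice 0 of 13 passed.

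Immediate early genes, which respond to handling and injury as Klf2, Klf4, Klf6 and Klf10 do, numbered 15. None passed over 5 mice, and the median log2 fold change was -1.09 unpaired, with 14 of 15 estimates below 0. Of the 15, 6 were lower in GFP+ cells in all 5 mice, beside 8.02% of all tested genes. Dusp1, a MAP kinase phosphatase, had 49.7 ± 34.7 CPM in GFP+ and 106 ± 29.8 CPM in GFP- cells (-1.09 ± 0.43, adjusted p = 0.549, edgeR). Nr4a1, an orphan nuclear receptor, had 21.3 ± 7.29 and 54.5 ± 58.0 CPM in GFP+ and GFP- cells (-1.36 ± 0.61, adjusted p = 0.604). With the block 9 of 15 fell in the 21A mice, where 4.05% of all tested genes passed as lower. The 17C mice allowed 13 to be tested, of which 1 rose and 2 fell, beside 6.08% and 7.52% of all tested genes. Their summed level was 381 to 989 CPM in GFP+ and 984 to 2222 CPM in GFP- libraries of the 21A mice, and 301 to 351 CPM in GFP+ and 390 to 431 CPM in GFP- libraries of the 17C mice.

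The genes most like 3 of the factors were found by the root mean square distance of their centred log2 CPM over all 10 libraries, among 4687 genes with a mean of at least 10 CPM. Closest to Klf15 were Coq10a (0.25), a coenzyme Q-binding protein, Ppargc1a (0.30), the coactivator of mitochondrial gene expression, and Cpeb3 (0.31), an RNA-binding protein, where the median gene lay at 1.29. Closest to Klf6 were Rap1b (0.19), a small GTPase, Shc1 (0.20), a signalling adaptor, and Mib1 (0.22), a ubiquitin ligase, with a median gene at 0.96. Klf5 had no neighbour as near, the closest being Slc38a1 (0.48), an amino acid transporter, Nectin2 (0.50), an adhesion protein, and Lrba (0.56), a vesicle protein, with a median gene at 1.02. These distances describe the libraries, which share their differences in depth and in marker content.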

How the data were processed

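Per the labels' protocols, RNA was amplified with SMARTer chemistry and libraries were made with Nextera XT, which does not mark strand. Molecular identifiers are not mentioned, so PCR copies count as reads. The authors deposited 1 table of raw counts, whole numbers of reads per gene in 10 libraries. Reads had been trimmed, aligned to GRCm39 and counted, and the submitters' processing notes list featureCounts of Subread 2.0.1, STAR 2.7.9a and fastp 0.23.1. For the annotation release and for reads with several matches, nothing is stated in the sources used here.

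All genes went through edgeR 4.0.16, run in R 4.3.3 (filterByExpr, TMM, quasi-likelihood F-test, two-sided, Benjamini-Hochberg over all tested genes), without and with the mouse as a block. SE was taken as the size of the log2 fold change over the root of the F statistic. With the block the 17C mice gave 2 pairs and the 21A mice 3. The p-values of these fits therefore lean on spread estimated across genes. Log2 CPM used a prior count of 2. The steps were tested on simulated data. Ratios used 0.5 added counts and exact tests in Python 3.11.15. The animal identifier in the titles pairs the libraries. As a check, the 2 libraries of each mouse deviated from their group means with a correlation over genes of 0.292, 0.397, 0.161, 0.0741 and 0.637. The libraries of a group are from separate mice, and 0 pairs of libraries were identical.

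Named were the 10 factors, Sprr1a, and from each list up to 3 genes past the threshold in either fit over 5 mice, or, where none passed, the 2 with the smallest unpaired p. Genes named within a series were chosen after their values were seen. For Klf15, Klf5 and Klf6 the 3 nearest genes were named. The factors, lists and rules were chosen with earlier results of these data known. Klf1, Klf8, Klf14, Klf17, Sp5, Sp6, Sp7, Sp8 and Sp9 fell below the filter on low counts, and Klf18 was not analysed here. Alternatives were DESeq2 1.42.0, limma 3.58.1 voom with quality weights, other scalings and filters, removal of mitochondrial genes, each series alone or as a covariate, and each library or mouse left out. Promoters came from a RefSeq table of GRCm38.p6 and exon lengths from GENCODE M21.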

Additional observations from a re-analysis of the deposited data

Results flagged for a closer look

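In GFP- cells of 21A7 the log2 ratio of Klf5 to Klf15 counts was 1.38, far from the other 4 GFP- libraries, which lay between -4.33 and -3.39. A gap test for single values within a group of 5 (critical value 0.71) was run on 24 groups of values, of which chance alone marks about 1 in 20. The same library had the lowest summed cardiomyocyte markers (4058 CPM) and the highest summed fibroblast markers (12129 CPM), and the part of these in the ratio was not tested. The log2 fold changes of 3 of the 10 factors differed between the identifier series in the edgeR fit with the mouse block. Of all tested genes 7.62% passed there. For 21A minus 17C mice the difference was -1.75 for Klf2, -2.92 for Klf4 and -2.04 for Klf6, with adjusted p of 0.0311, 0.0211 and 0.0207. Without the block the same differences had adjusted p of 0.201, 0.202 and 0.2, and 0% of all tested genes passed. Each of the 3 was lower in GFP+ cells in 3 of 3 mice of the 21A series and higher in 2 of 2 of the 17C series.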

How the results depend on the processing

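The counts of genes that passed over 5 mice were 10 unpaired and 104 with the mouse as a replicate block. Unpaired, they were 243 by DESeq2, 336 by voom, 545 with library size alone, 0 with scaling to cardiomyocyte markers (352 at an unadjusted p under 0.05), 38 with no filter, 19 with a filter of 5 CPM in 5 libraries, 97 with the series as covariate, 1059 in 17C mice and 0 in 21A mice (1621 unadjusted), and 0 to 34 with 1 library left out. Alternatives of the blocked fit were, apart from leaving out mice, chosen after seeing the data. They gave 1510 in 17C mice, 889 in 21A mice, 853 by DESeq2, 33 with library size alone, 0 with cardiomyocyte scaling (753 unadjusted), and 0 to 173 with 1 mouse left out (71 without 21A7).

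Library size alone moved the median of all genes to -1.24 (-1.15 with the block) and cardiomyocyte scaling to -0.69 (-0.21 with the block). Relative to these medians, the number of factors below was 9 and 8 unpaired, and 7 in both blocked fits. Klf7, Klf9 and Klf13 kept a log2 fold change below 0 in all alternatives run for them. Klf5 turned to -1.14 with library size alone, -0.63 with cardiomyocyte scaling and -0.64 in 17C mice, and with the block to -0.67 with library size alone and -0.56 in 17C mice. Leaving out 1 library gave -0.043 to 0.64, and Klf5 was not tested under the stricter filter. Klf6, 0.02 over all 5 mice, turned to -0.011 by DESeq2 and with its size factors (-0.0068), -0.13 by voom, -1.65 with library size alone, -1.18 with cardiomyocyte scaling, -0.021 without a filter, -0.066 with the stricter one and -0.56 in 21A mice, while it passed at 1.48 in 17C mice. With 1 library left out it was -0.19 to 0.33. With the block Klf6 was 1.49 in 17C mice, -0.54 in 21A mice and -0.86 with library size alone, and -0.088 to 0.46 with 1 mouse left out. Klf4 passed with library size alone (-3.58). Klf15 was -1.49 to -0.80 with 1 library left out and, with the block, -1.32 to -0.26 with 1 mouse left out. It passed in 17C mice (-1.98, with the block -2.14) and turned to 0.24 in 21A mice with the block. In 17C mice Klf2 turned to 0.38 (block 0.40), Klf4 to 0.96 (block 1.04) and Klf10 to 0.47 (block 0.38). Klf11 turned to -0.11 by voom, -1.35 with library size alone and -0.68 with cardiomyocyte scaling, and with the block to -1.07 and -0.14 under these scalings. With 1 library left out Klf10 was -0.51 to 0.12 and Klf11 -0.044 to 0.21, and with 1 mouse left out of the blocked fit Klf11 was -0.080 to 0.19. The Klf6 to Klf15 ratio turned to -0.88 in 21A mice. Where no value is given beside a change, the cause was not tested. With TMM scaling the block changed no call of a factor over 5 mice. Low counts, 7 to 33 for Klf5 in GFP+ libraries, limit the precision of its values.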
